A study of Mus musculus with 2 samples.

Results

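The amino acid transporters described here are 10 genes, found by their symbol among the 22585 gene symbols of both count matrices: Slc7a11, Slc3a2, Slc7a5, Slc7a1, Slc7a3, Slc7a10, Slc38a1, Slc38a2, Slc1a4 and Slc6a9. They were measured by droplet single-cell RNA sequencing (10x Genomics 3′ v2) in YFP-positive cells sorted from mouse hippocampus at 12 weeks of age, 4 weeks post-TAM (tamoxifen, 200 mg/kg per day for 5 days from 8 weeks of age). The control (CT) mice carried Nestin-CreERT2 and the ROSA26YFP reporter without the floxed allele (though their strain label also lists it), and the Opa1 cKO mice carried both together with Opa1-Flox, so all animals carried the Cre and received tamoxifen. The Nestin promoter drives the Cre, which marks neural stem cells (NSCs) and their progeny, and other cells that use the promoter. Each genotype was 1 library of cells pooled from 3 mice, so no difference between genotypes has a replicate check. The intervals given below are exact 95% intervals, and they cover counting error only.

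Amino acid transporters move amino acids across the plasma membrane, and most work as exchangers or as sodium-coupled pumps. SLC3A2 (4F2hc, CD98) is the heavy chain that carries several SLC7 light chains to the cell surface. With SLC7A11 (xCT) it forms system xc-, which takes up cystine for glutathione synthesis in exchange for glutamate. With SLC7A5 (LAT1) it takes up leucine and other large neutral amino acids, and with SLC7A10 (Asc-1) it exchanges small neutral amino acids such as serine, glycine and alanine. SLC7A1 and SLC7A3 carry cationic amino acids (arginine and lysine) without a heavy chain, SLC38A1 and SLC38A2 take up glutamine and other neutral amino acids with sodium, SLC1A4 (ASCT1) carries serine and alanine, and SLC6A9 (GLYT1) takes up glycine. In many cell types, ATF4, the transcription factor of the integrated stress response, induces several of these genes when amino acids are scarce or mitochondria are impaired.

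ATF4 binds, with a partner, to the C/EBP-ATF response element (CARE), searched here as TGATGNAAN on both strands. RefSeq promoter windows (GRCm38.p6, 250 bases before to 50 after the start site) were at hand for 7 of the 10 members, in 10 windows. The element was found for 2 members, Slc7a11 and Slc1a4, and it was found in 3.95% of all 32851 windows of the same length. The windows of these 2 genes are shown, with that of Slc3a2, the heavy chain, for comparison. Each is printed in the direction of transcription, 5′ to 3′, with every match in capitals.
Slc7a11 (chr3:50443564-50443863, minus strand): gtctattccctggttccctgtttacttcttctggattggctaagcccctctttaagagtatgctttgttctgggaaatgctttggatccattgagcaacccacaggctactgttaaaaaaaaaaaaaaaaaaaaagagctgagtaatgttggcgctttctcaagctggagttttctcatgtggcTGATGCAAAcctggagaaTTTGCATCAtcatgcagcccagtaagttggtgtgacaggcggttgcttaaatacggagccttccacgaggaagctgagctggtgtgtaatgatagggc
Slc1a4 (chr11:20332664-20332963, minus strand): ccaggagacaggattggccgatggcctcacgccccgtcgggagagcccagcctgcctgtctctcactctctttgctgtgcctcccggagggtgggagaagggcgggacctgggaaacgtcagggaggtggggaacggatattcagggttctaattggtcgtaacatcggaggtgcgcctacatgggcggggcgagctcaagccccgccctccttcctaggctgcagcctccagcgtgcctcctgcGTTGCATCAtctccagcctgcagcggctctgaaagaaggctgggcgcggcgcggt
Slc3a2 (chr19:8713848-8714147, minus strand): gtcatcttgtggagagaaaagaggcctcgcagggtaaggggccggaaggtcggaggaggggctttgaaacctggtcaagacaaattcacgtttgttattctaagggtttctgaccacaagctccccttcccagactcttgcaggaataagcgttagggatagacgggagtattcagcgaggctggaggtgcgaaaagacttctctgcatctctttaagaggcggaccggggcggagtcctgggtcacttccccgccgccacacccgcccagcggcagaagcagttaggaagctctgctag
The Slc7a11 window held 2 matches with the same letters, TGATGCAAA, on opposite strands. One lay on the gene's strand from 66 to 58 bases before the start site, and the other on the opposite strand from 48 to 40 bases before it. The match of Slc1a4, TGATGCAAC on the opposite strand, began 5 bases before the start site and ran 4 bases into the transcript. The window of Slc3a2, which lies at a start site inside the annotated gene, had no match to these letters, nor did those of Slc7a1, Slc7a10, Slc38a2 and Slc6a9. The antioxidant response element, searched as TGACNNNGC on both strands, was found in windows of Slc7a1, Slc38a2 and Slc6a9, and in 12.4% of all windows. These are matches of letters, and the libraries did not measure binding. A window without a match does not show that a gene lacks the element elsewhere. By ChIP-qPCR in neurospheres, the study found more ATF4 at the start sites of Slc3a2 and Slc7a11 after Opa1 knockdown.

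The CT library held 4634 barcodes and the Opa1 cKO library 6475, of which 1790 and 3764 passed the filters on genes, mitochondrial share and YFP, with medians of 2555 and 3008 unique molecular identifiers (UMIs) per cell. Kept cells of the 2 libraries shared 9 barcode sequences. Clusters were named from marker lists, and clusters 0, 1 and 2 formed the NSC pool-like class (1373 CT and 2779 Opa1 cKO cells), which carries markers of astrocyte-like NSCs and of astrocytes (Aldoc, Aqp4, Gja1, Hopx). Different clusters held most of this class in each genotype: cluster 0 had 64 CT and 1726 Opa1 cKO cells, cluster 1 had 810 and 785, and cluster 2 had 499 and 268. Since cluster 0 came nearly all from 1 library, a cell state and the library cannot be told apart there. The summed level of the 13 NSC markers was 79514 CPM (UMIs of the gene per 1e6 UMIs of the group) in CT against 69406 CPM in Opa1 cKO, and the marker lists of the 6 other named classes summed to between 60.6 and 429 CPM each in both. The 7 markers of oligodendrocyte precursors summed to 121 CPM in CT, with 3 of them at 0, and to 312 CPM in Opa1 cKO, with 2 at 0. The 8 markers of microglia summed to 68.6 and 141 CPM with none at 0, and the part of these cells in the results was not tested. A list of 7 astrocyte markers, which shares Aqp4 with the NSC list, summed to 3846 and 3813 CPM with none at 0, and NSCs and astrocytes cannot be told apart in this class. Opa1 itself was at 18.6 CPM in CT (70 UMIs) against 7.48 CPM in Opa1 cKO (68 UMIs), with a log2 ratio of −1.31 (−1.82 to −0.81).

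The share of a cell's UMIs in the 13 mitochondrially encoded mRNAs (the mt- share) separated the libraries. Its median in NSC pool-like cells was 5.23% in CT and 0.713% in Opa1 cKO. Under a limit of 1%, which was chosen with earlier results known, lay 3 CT cells and 1647 Opa1 cKO cells (59.3%), while 1132 Opa1 cKO cells lay at or above it. The limit divides a range and not cell types, and 255 Opa1 cKO cells lay near it, from 0.8% to the same ratio above it. Below, Opa1 cKO cells on either side of it are called low-mt and normal-mt cells. The second name marks a side of the limit and not a share like that of CT. From 1 to 2% lay 248 of the normal-mt cells, against 12 CT cells, and from 2 to 4% lay 241, still under the CT median.

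Both genes of the cystine/glutamate exchanger were higher in Opa1 cKO NSC pool-like cells, and most so in low-mt cells. Slc7a11 (chromosome 3, 49892526 to 50443614 in GRCm38, as are the gene spans given for the other members) had 349.7 CPM (331 to 369) in CT against 918 CPM (898 to 938) in Opa1 cKO, with a log2 ratio of 1.39 (1.31 to 1.48). Within Opa1 cKO it stood at 519.8 CPM in normal-mt cells and 1181 CPM in low-mt cells, and both intervals lay above that of CT. Slc3a2 (chromosome 19, 8706882 to 8723369) had 521 CPM (499 to 545) in CT against 1996 CPM (1967 to 2025) in Opa1 cKO, with a log2 ratio of 1.94 (1.87 to 2.0). In normal-mt and low-mt cells Slc3a2 stood at 976 and 2669 CPM. The difference between both groups of cells inside the Opa1 cKO library, where no difference between libraries enters, was 1.45 (1.4 to 1.5) on the log2 scale for Slc3a2 and 1.18 (1.11 to 1.26) for Slc7a11. Clusters were filled unequally there too, with 1367 of the 1647 low-mt cells in cluster 0 and 628 of the 1132 normal-mt cells in cluster 1. Within clusters 0, 1 and 2, Slc3a2 stood at 2592, 3448 and 3116 CPM in low-mt cells against 1332, 784 and 921 CPM in normal-mt cells.

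The light chains of Slc3a2 did not differ in 1 direction. Slc7a5 (chromosome 8, 121881150 to 121907694), the light chain for leucine, went from 35.1 CPM (29.4 to 41.6) in CT to 307 CPM (296 to 318) in Opa1 cKO, 8.74-fold, with a log2 ratio of 3.13 (2.88 to 3.39). It stood at 133 CPM in normal-mt and 422 CPM in low-mt cells. Slc7a10 (chromosome 7, 35186385 to 35201114), the light chain for serine and glycine, was the 1 member with a lower level: 803 CPM (775 to 832) in CT against 500.4 CPM (486 to 515) in Opa1 cKO, with a log2 ratio of −0.68 (−0.75 to −0.62). Normal-mt cells had 644 CPM and low-mt cells 405 CPM of it, but this drop was not seen inside clusters 0 and 1. Within clusters 0, 1 and 2, Slc7a10 stood at 355, 914 and 699 CPM in low-mt cells. In normal-mt cells of these clusters it stood at 294, 832 and 707 CPM. Slc7a6, Slc7a7 and Slc7a8, the other light chains counted, gave 1 to 7 UMIs each in CT and 13 to 31 in Opa1 cKO.

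Summed over these 6 light chains, the level was 1191 CPM in CT against 1732 CPM in Opa1 cKO, with a log2 ratio of 0.54 (0.49 to 0.59), against 1.94 for the heavy chain. The make-up of the light chain UMIs differed more than their sum. Slc7a10 made up 67.4% (66.0 to 68.8) of them in CT and 28.9% (28.2 to 29.6) in Opa1 cKO. Slc7a11 made up 29.4% in CT and 53.0% in Opa1 cKO, and Slc7a5 2.95% and 17.7%. Normal-mt cells lay between, with 49.4% Slc7a10, 39.9% Slc7a11 and 10.2% Slc7a5, and low-mt cells had 20.1%, 58.6% and 20.9%. These groups filled the clusters unequally, as given above, and the part of this in the shares was not tested. Tags were counted at the 3′ end, where transcript length does not set the count but capture can differ between genes, so these shares compare groups of cells and not the abundance of 1 gene with another's.

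**Figure D1:**
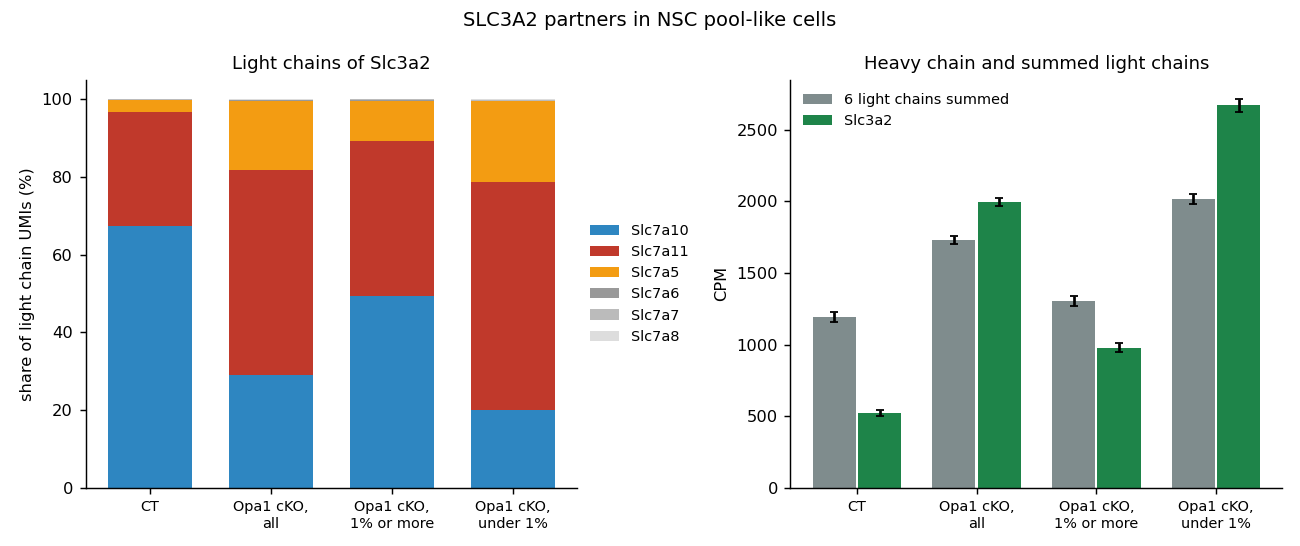
Left, the make-up of the UMIs of 6 light chains of Slc3a2 (percent, vertical axis) in CT NSC pool-like cells and in all, normal-mt (1% or more) and low-mt (under 1%) Opa1 cKO cells, with Slc7a10 at 67.4% of them in CT and 28.9% in Opa1 cKO. Right, the summed light chains and Slc3a2 in CPM for the same groups, with bars for exact 95% Poisson intervals, from 521 CPM of Slc3a2 in CT to 2669 CPM in low-mt cells.

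The difference in Slc7a10 lay mostly between clusters, with a small one within cluster 2, and that in Slc3a2 and Slc7a11 lay within clusters as well. The members were kept out of the genes used for clustering. In cluster 1, which both libraries filled about equally, Slc7a10 was at 831 CPM in CT against 844 CPM in Opa1 cKO, with a log2 ratio of 0.02 (−0.07 to 0.11), and the 157 low-mt cells of that cluster had 914 CPM, 0.14 (−0.05 to 0.32) against CT. In cluster 2 the levels were 822 and 704 CPM, −0.22 (−0.37 to −0.07). In cluster 0 both were low, with 302 CPM in CT (52 UMIs) and 343 CPM in Opa1 cKO. In the same cluster 1, low-mt cells had 3448 CPM of Slc3a2 and 1732 CPM of Slc7a11, against 536 and 353 CPM in CT, with log2 ratios of 2.69 (2.57 to 2.81) and 2.29 (2.13 to 2.45). Slc7a5 in these cells stood at 516 CPM against 37.6 CPM, 3.78 (3.39 to 4.18). Slc7a10 was among the leading genes of clusters 1 and 2, and Slc7a11 of cluster 0, although neither was used to build them, and cells were placed by genes that vary with them, so levels by cluster are a description.

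Both carriers of cationic amino acids were scarce in CT. Slc7a1 (chromosome 5, 148327410 to 148399904) was read by 11 CT and 185 Opa1 cKO UMIs in NSC pool-like cells, 2.92 CPM (1.46 to 5.23) and 20.4 CPM (17.5 to 23.5), a log2 ratio of 2.80 (1.93 to 3.83). Slc7a3 (chromosome X, 101079210 to 101086020) had 5 and 123 UMIs, 1.33 CPM (0.43 to 3.1) and 13.5 CPM (11.3 to 16.2), with 3.35 (2.09 to 5.0). Both passed the minimum of 100 UMIs through Opa1 cKO alone. In oligodendrocyte-like cells of Opa1 cKO they stood at 20.7 CPM (9.45 to 39.2) and 6.89 CPM (1.42 to 20.1), which overlapped the NSC pool-like levels of that library. The genes differed between normal-mt and low-mt cells: Slc7a1 stood at 9.68 and 27.4 CPM, and Slc7a3 at 1.94 CPM (7 UMIs) and 21.2 CPM (116 UMIs), so that Slc7a3 in normal-mt cells lay inside the interval of CT. Its log2 ratio of normal-mt cells over CT was 0.54, and it ran from −0.52 with the 5 cells of most UMIs of it left out to 2.48 with the limit at 0.5%.

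Of the sodium-coupled glutamine carriers, Slc38a2 was higher in both normal-mt and low-mt cells, while the ratio of Slc38a1 had no one direction across clusters and settings. Slc38a2 (chromosome 15, 96687392 to 96699730) stood at 12.8 CPM (9.41 to 16.9) in CT, 34.0 CPM in normal-mt cells and 70.4 CPM in low-mt cells, and over all Opa1 cKO cells at 55.9 CPM, a log2 ratio of 2.13 (1.70 to 2.59). Slc38a1, its neighbour on chromosome 15 (96571418 to 96642913), stood at 18.3 CPM (14.3 to 23.2) in CT, 37.6 CPM (31.5 to 44.5) in normal-mt cells and 21.8 CPM (18.0 to 26.0) in low-mt cells. The log2 ratio of low-mt over normal-mt cells was −0.79 (−1.16 to −0.42), and it turned to 0.47 with the limit at 2%. Its log2 ratio over all cells was 0.61 (0.22 to 1.02), and it was −0.040 when clusters were built on all variable genes, which drew the class differently. Within clusters 0, 1 and 2 it was −1.99 (−2.58 to −1.35), −0.76 (−1.88 to 0.30) and 0.23 (−0.85 to 1.26). In normal-mt cells the log2 ratio against CT was 1.04, but 0.17 with clusters built on all variable genes and 0.27 with the limit at 2%. In low-mt cells it was 0.25, and it ran from −1.02 with the limit at 0.5% to 0.75 with the limit at 2%. In oligodendrocyte-like cells of Opa1 cKO Slc38a1 stood at 23.0 CPM, with an upper bound of 42.2 CPM, which covers the level in normal-mt cells. The UMIs of Slc38a1 were many in the ependymal-like and activated NSC-like classes, as given below.

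The carriers of serine and glycine differed by less than 2-fold over all NSC pool-like cells. Slc1a4 (chromosome 11, 20302180 to 20332713) had 127 CPM (116 to 139) in CT against 157 CPM (149 to 165) in Opa1 cKO, with a log2 ratio of 0.30 (0.15 to 0.45). In normal-mt cells it was at 131 CPM, with an interval of the log2 ratio from −0.14 to 0.23, and in low-mt cells at 173 CPM. Slc6a9 (chromosome 4, 117834506 to 117875198) had 23.9 CPM (19.2 to 29.4) in CT against 45.6 CPM (41.3 to 50.2) in Opa1 cKO, 0.93 (0.60 to 1.27), with 31.8 CPM in normal-mt and 54.7 CPM in low-mt cells.

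**Figure D2:**
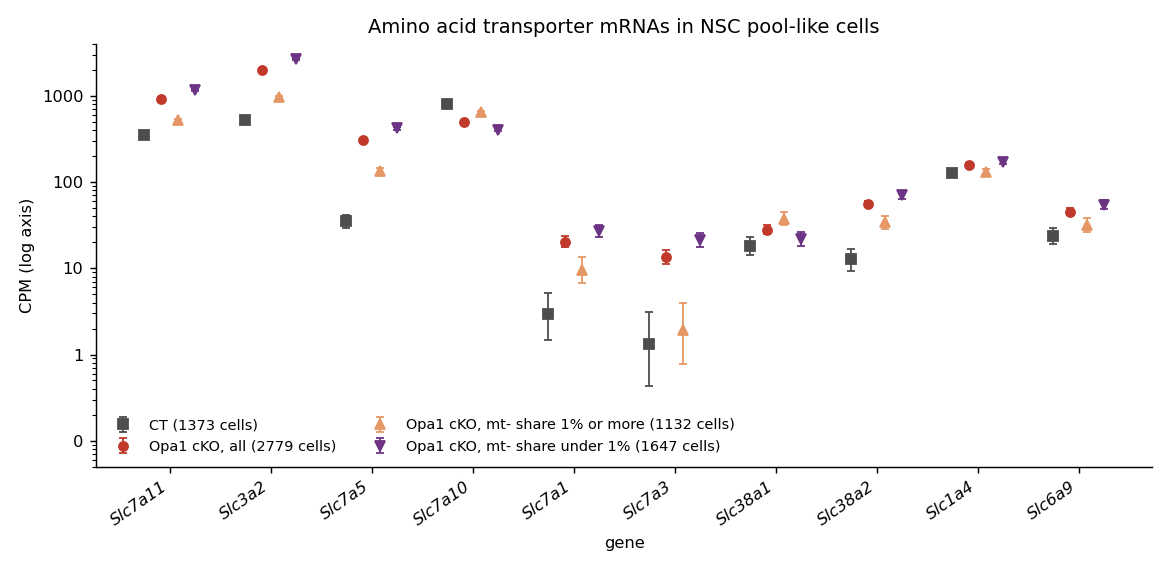
Level of each member in NSC pool-like cells in CPM (vertical axis, log scale) for CT, all Opa1 cKO cells, and Opa1 cKO cells with an mt- share of 1% or more and under 1%. Points are summed UMIs per 1e6 and bars exact 95% Poisson intervals. Low-mt cells had 2669 CPM of Slc3a2 against 521 CPM in CT, and 405 against 803 CPM of Slc7a10. For Slc38a1 (21.8 against 18.3 CPM) the intervals overlapped.

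Counted against all genes, 6 of the 10 members were at least 2-fold higher in Opa1 cKO NSC pool-like cells, where 2.54% of 8890 genes of at least 100 UMIs were, and no member was at least 2-fold lower, where 2.01% of genes were. The median log2 ratio of the members was 1.66, and that of all genes 0.07. By size of the log2 ratio, Slc7a3, Slc7a5 and Slc7a1 stood at positions 21, 23 and 26 from the top, Slc38a2 at 35, Slc3a2 at 44 and Slc7a11 at 97. Slc7a1 and Slc7a3 had reached 100 UMIs through Opa1 cKO, and without them 4 of 8 members were 2-fold higher. In low-mt cells against CT, 7 members were 2-fold higher (5.5% of 8069 genes) and none 2-fold lower (3.16%), with a median of 2.06 against 0.14 for all genes. Centred on that median, 3.38% of genes were higher and 4.96% lower. In normal-mt cells against CT, 3 of the 8 members with enough UMIs were 2-fold higher (0.655% of 7323 genes) and none lower (1.22%), with a median of 0.74. Of these, Slc38a2 reached 100 UMIs through the normal-mt cells (48 CT and 123 normal-mt UMIs), and Slc38a1 stood at 1.04. The count was 2 with clusters built on all variable genes, at resolution 0.4, or without the 5% of cells with most UMIs. Between low-mt and normal-mt cells of the Opa1 cKO library, 6 members were 2-fold higher in low-mt cells (1.45% of 7880 genes) and none lower (0.673%). Their median was 1.12 against 0.18 for all genes, and centred on the latter 0.838% of genes were higher and 1.02% lower. The other counts that hold Slc7a1 and Slc7a3 have them through the group where they were high.

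The list of 48 other amino acid transporters was used for comparison, and 47 of them were among the measured symbols. Of these, 13 reached 100 UMIs in NSC pool-like cells. Their median log2 ratio was −0.13, and 2 were 2-fold higher, both of them glutamine carriers: Slc1a5 (ASCT2) on 7 CT and 237 Opa1 cKO UMIs, 3.81 (2.74 to 5.14), and the lysosomal Slc38a7 with 15 and 89 UMIs, 1.30 (0.50 to 2.19). Both reached 100 UMIs through Opa1 cKO. None of the 13 was 2-fold lower. A transporter of GABA and one of glutamate, both used by astrocytes, stood lower in Opa1 cKO: Slc6a11 at 514 CPM in CT against 288 CPM in Opa1 cKO, −0.84 (−0.92 to −0.75), and Slc1a2 at 4536 and 3276 CPM, −0.47 (−0.50 to −0.44). Slc38a6 had −0.81 (−1.35 to −0.25), Slc38a10 0.45 (0.03 to 0.89) and Slc43a2 0.42 (0.02 to 0.84). Of a list of 35 genes of the ATF4 pathway and of related stress responses, 32 reached 100 UMIs. Of these, 12 had fewer than 50 UMIs in CT, and so most of their UMIs in Opa1 cKO. The list was chosen with earlier results of these data known. In NSC pool-like cells 26 of the 32 were at least 2-fold higher (2.54% of all genes) and 1 at least 2-fold lower (2.01%). The lower gene was Vegfa, named after its value was seen. The median log2 ratio of the 32 was 1.99. No count without the 12 is given, so these values are a description. Atf4 mRNA went from 77.9 to 212 CPM, 1.45 (1.27 to 1.63), and Ddit3, which encodes the stress factor CHOP, from 49.7 to 344 CPM, 2.79 (2.58 to 3.01). Chac1, which encodes an enzyme that degrades glutathione, was read by 2 CT and 543 Opa1 cKO UMIs, 6.81 (4.95 to 9.86). Trib3, which encodes a feedback inhibitor of ATF4, had none in CT and 750, at least 103-fold higher against a floor of 3 UMIs in CT.

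Divided finely by mt- share, the members changed level at different points of the range. In Opa1 cKO cells, Slc3a2 stood at 2778 CPM in cells under 0.5%, 2488 CPM from 0.5 to 1%, 1727 CPM from 1 to 2%, 1142 CPM from 2 to 4%, 687 CPM from 4 to 8% and 498 CPM at 8% or more. Slc7a11 held between 998 and 1193 CPM in all bins under 2%, and stood at 650, 314 and 270 CPM in the bins above. Slc7a5 followed with 433, 402, 328, 187, 43.2 and 59.9 CPM. Slc7a3 was found mainly under 1%, with 23.7 and 17.1 CPM in the lowest bins and 1.37 CPM (1 UMI) from 1 to 2%. Slc38a1 had its highest level in the middle, with 9.06 CPM under 0.5%, 98.5 CPM (77.1 to 124) from 1 to 2% and 13.5 CPM from 4 to 8%. The markers of activated NSCs summed to 480 CPM in that middle bin of 248 cells and to 162 to 343 CPM in the others, and their part in the level of Slc38a1 was not tested. Slc7a10 was lowest in that bin (287 CPM) and highest from 4 to 8% (794 CPM).

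Cells with the same mt- share could be compared between libraries in 3 bins, and what was seen depended on the bin. From 4 to 8%, with 840 CT and 544 Opa1 cKO cells, Slc7a11 stood at 339 and 314 CPM, a log2 ratio of −0.11 (−0.27 to 0.05). Slc7a5 had 0.20 (−0.26 to 0.65), Slc7a10 −0.05 (−0.15 to 0.05) and Slc38a2 0.01 (−0.77 to 0.77). Slc3a2 was the 1 member whose interval excluded no difference in that bin, at 510 and 687 CPM, 0.43 (0.31 to 0.55). At 8% or more, with 211 and 99 cells, Slc3a2 had 0.39 (0.09 to 0.68) and Slc7a5 1.17 (0.15 to 2.21) on 16 and 20 UMIs. From 2 to 4%, with 307 and 241 cells, the differences were larger: 0.76 (0.60 to 0.92) for Slc3a2, 0.62 (0.42 to 0.83) for Slc7a11, 2.60 (1.96 to 3.30) for Slc7a5 and −0.36 (−0.53 to −0.19) for Slc7a10. In that bin Slc38a1 had 3.08 (1.60 to 5.04) on 4 CT and 35 Opa1 cKO UMIs, and Slc38a2 had 2.92 (1.57 to 4.62) on 5 and 39, an interval that covers that of the whole class. Of the cells in these 3 bins, 1.3%, 4.17% and 10.4% of those in CT and 35.3%, 11.03% and 12.1% of those in Opa1 cKO belonged to cluster 0, in the order 2 to 4%, 4 to 8% and 8% or more.

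**Figure D3:**
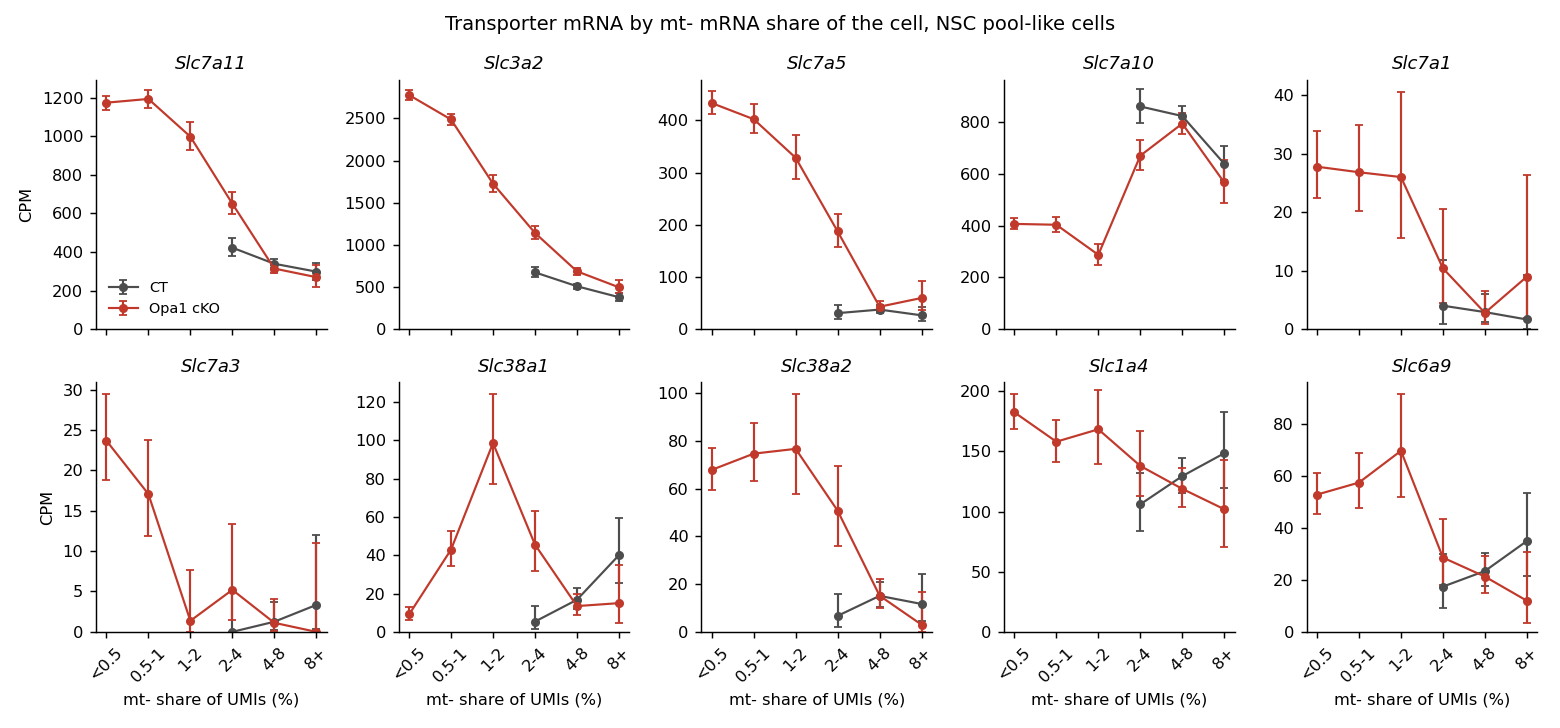
CPM of each member (vertical axis) in NSC pool-like cells grouped by the share of UMIs in 13 mitochondrially encoded mRNAs (horizontal axis, percent), with exact 95% Poisson intervals. Bins with under 20 cells are left out, which leaves CT with 3 bins. The curves of the libraries meet from 4 to 8% for Slc7a11 (339 and 314 CPM), and that of Slc3a2 stays higher in Opa1 cKO (687 against 510 CPM).

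The same differences were seen as shares of cells with a UMI, after each cell was thinned to 1500 UMIs, without the 94 CT and 233 Opa1 cKO NSC pool-like cells that had fewer. Slc3a2 was found in 51.2% (48.4 to 54.0) of CT cells against 84.1% (82.6 to 85.5) in Opa1 cKO, and in 95.9% of low-mt cells. Without thinning the first 2 shares were 68.8% and 91.9%. Slc7a11 was found in 34.8% of CT cells against 65.2% in Opa1 cKO (47.7% and 78.1% unthinned), and in 79.4% of low-mt and 44.7% of normal-mt cells. Slc7a5 went from 4.53% to 34.0% (8.3% and 50.6% unthinned), and Slc7a10 from 64.4% to 49.2% (80.3% and 68.4% unthinned). Slc7a3 was found in 0 of 1279 CT cells, which allows a share of cells with a UMI of up to 0.235%, and in 1.57% of Opa1 cKO cells. Oligodendrocyte-like cells (median 3768 UMIs in CT and 3914 in Opa1 cKO, against 2490 and 2951 in NSC pool-like cells) were thinned alike. Read as a background from free RNA, Slc7a11 was found there in 2.7% (CT) and 7.92% (Opa1 cKO), and Slc7a10 in 5.41% and 9.9%. Slc7a5 was found in 1.35% and 4.95%, and Slc1a4 in 1.35% and 1.98%. Slc3a2 was found in 25.7% and 35.6% of these cells. Its level in them was 41.3% of that in NSC pool-like cells in CT and 16.4% in Opa1 cKO. The 8 NSC markers named below stood at 6.20 to 17.5% and 12.4 to 24.4%, so its CT share is not read as free RNA alone. The shares of Slc7a1 (2.51%), Slc7a3 (1.57%) and Slc38a1 (3.77%) in Opa1 cKO NSC pool-like cells lay inside the intervals of oligodendrocyte-like cells. Those intervals were 0.0251 to 5.39% for the first 2 (1 of 101 cells each) and 0.617 to 8.44% for Slc38a1. No expression is read from these shares alone. The levels of these genes in oligodendrocyte-like cells were 101%, 50.9% and 81.8% of those in NSC pool-like cells. They rest on 9 (5 of them in 1 cell), 3 and 10 UMIs of the oligodendrocyte-like cells in Opa1 cKO. The 8 NSC markers named below stood at 12.4 to 24.4%, and the source of these UMIs was not tested. Slc38a2 and Slc6a9 had higher shares in oligodendrocyte-like cells (29.7% and 16.2% in CT) than in NSC pool-like cells, so that class gives no background for them.

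**Figure D4:**
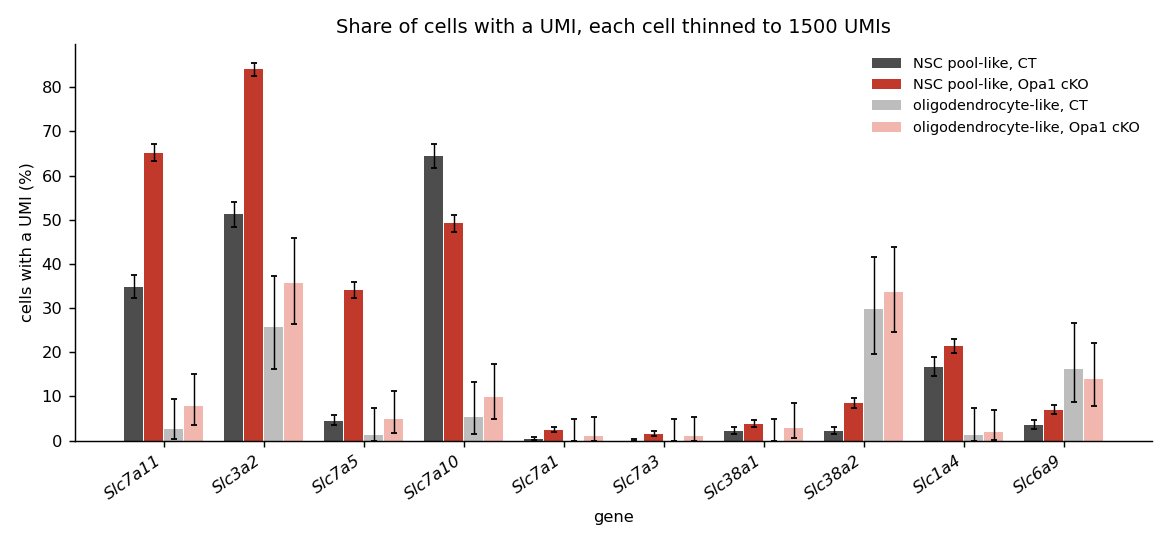
Percent of cells with at least 1 UMI of each member (vertical axis) after thinning to 1500 UMIs per cell, in NSC pool-like and oligodendrocyte-like cells of each library, with exact 95% Clopper-Pearson intervals. Slc3a2 was found in 84.1% of Opa1 cKO against 51.2% of CT NSC pool-like cells, and Slc38a2 most often in oligodendrocyte-like cells (29.7% in CT).

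Heavy and light chain mRNAs were also found together in single cells. Of 1279 CT cells, 272 (21.3%) had UMIs of both Slc7a11 and Slc3a2, and of 2546 Opa1 cKO cells 1512 (59.4%). If the genes were found independently, their own shares would give 17.8% and 54.8%. In low-mt cells, taken alone, 77.2% had both and independence would give 76.2%. Slc3a2 was found in 95.9% of low-mt cells, which left little room for these values to differ. In normal-mt cells 33.7% (30.9 to 36.7) had both, and independence would give 29.9%. Among cells with a Slc7a11 UMI, 61.1% in CT and 91.1% in Opa1 cKO also had Slc3a2, and in low-mt cells 97.2%. Both Slc7a11 and Slc7a5 were found in 21 CT cells (1.64%) and 681 Opa1 cKO cells (26.7%). Cells with Slc7a11 and without Slc7a10 were 171 of the 1279 CT cells and 867 of the 2546 Opa1 cKO cells. At 1500 UMIs per cell a missing UMI does not show that the mRNA was absent.

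Outside the NSC pool-like class, each member had its own pattern. The class with the highest level of Slc7a11, Slc7a10 and Slc1a4 was the NSC pool-like class in both libraries. Slc7a1 was highest in endothelial-like cells (215 CPM in CT, 293 CPM in Opa1 cKO), a cluster led by a globin gene (Hbb-bs) and Cldn5. Slc38a1 was highest in ependymal-like cells (694 and 673 CPM), and next in activated NSC-like cells (164 and 319 CPM), which in CT did not differ from progenitor and neuron-like cells (140.0 CPM) beyond counting error. Slc7a3 was highest in Opa1 cKO among progenitor and neuron-like cells (38.5 CPM, 24.4 to 57.8, on 23 UMIs). Slc38a2 was highest in oligodendrocyte-like cells (250 and 255 CPM), where it did not differ from the ependymal-like level beyond counting error in CT (201 CPM, 126 to 304), and Slc6a9 was highest in the same oligodendrocyte-like cells (118 and 101 CPM). Slc7a5 was highest in endothelial-like cells of both libraries (644 and 358 CPM), although in Opa1 cKO its interval there (300.4 to 422) overlapped that of NSC pool-like cells (296 to 318). Slc3a2 was highest in endothelial-like cells of CT (717 CPM) and in NSC pool-like cells of Opa1 cKO (1996 CPM).

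The interval of Slc3a2 lay above 0 in each of the other classes, with log2 ratios of 1.99 (1.61 to 2.39) for progenitor and neuron-like cells, 2.04 (1.10 to 3.19) in ependymal-like cells, 1.18 (0.78 to 1.60) in mural-like cells, 0.61 (0.17 to 1.06) in oligodendrocyte-like cells and 0.44 (0.18 to 0.71) in endothelial-like cells. In activated NSC-like cells 15 CT cells gave 7 UMIs of it and 210 Opa1 cKO cells gave 610, 2.46 (1.40 to 3.78). The interval of Slc7a11 lay above 0 in 5 of these classes, with 2.42 (1.46 to 3.54) for progenitor and neuron-like and 2.02 (1.22 to 2.94) in mural-like cells, while in ependymal-like cells it stood at 119 and 131 CPM, 0.14 (−0.68 to 1.09). The free RNA values given below limit which of these ratios are read as differences. In Opa1 cKO, the top 5 cells held 49.3% of the 71 Slc7a11 UMIs of progenitor and neuron-like cells. They held 43.2% of the 118 Slc7a11 UMIs of mural-like cells. Slc7a5 had 1.65 (0.93 to 2.43) for progenitor and neuron-like cells, and in endothelial-like cells it was lower in Opa1 cKO, −0.85 (−1.19 to −0.51). Slc38a1 in ependymal-like cells had −0.05 (−0.39 to 0.32), and Slc38a2 in oligodendrocyte-like cells 0.03 (−0.41 to 0.48). Among progenitor and neuron-like cells, 2 of the 4 members with at least 100 UMIs were 2-fold higher (1.74% of 2006 genes) and none 2-fold lower (2.59%). In mural-like cells both of the 2 members with enough UMIs were 2-fold higher (3.04% of 953 genes), and none was 2-fold lower (1.99%). Slc7a11 reached 100 UMIs there through Opa1 cKO, on 14 CT and 118 Opa1 cKO UMIs. So did Slc7a5 among progenitor and neuron-like cells, on 20 and 83.

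Free RNA of the NSC pool-like cells was read from 8 of their markers in the other classes (Aldoc, Cxcl14, Hsd11b1, Gja1, Aqp4, Mt3, Apoe and Clu, chosen after the values were seen). In the progenitor and neuron-like class these markers stood at 3.84 to 6.0% of their NSC pool-like level in CT and at 4.27 to 11.7% in Opa1 cKO. There, Slc7a10 stood at 1.66% and 8.37%, and Slc7a11 at 6.35% and 12.97% of their own NSC pool-like levels. Slc7a11 thus lay just above the range in both libraries, and the part of free RNA in its ratio was not tested. Slc3a2 stood at 28.6% and 29.6%. In oligodendrocyte-like cells the markers stood at 6.20 to 17.5% in CT and 12.4 to 24.4% in Opa1 cKO, and Slc7a11 at 9.93% and 13.8%, Slc7a10 at 6.05% and 17.4%, and Slc3a2 at 41.3% and 16.4%. In mural-like cells the markers stood at 13.3 to 20.6% and 16.8 to 29.1%, and Slc7a11 at 23.9% and 37.0%. In oligodendrocyte-like cells the levels of Slc7a11 and of Slc3a2 in Opa1 cKO were thus in the range of these markers, as were those of Slc7a11 in CT, while Slc7a10 lay at or just under that range in CT and within it in Opa1 cKO, and no difference is read from these values. In ependymal-like cells the markers ran from 1.36 to 125.6% in CT and from 10.7 to 123% in Opa1 cKO, with Mt3 at the top of both, and in activated NSC-like cells from 4.19 to 55.8% and from 17.6 to 58.7%, wide ranges that give no clear background. Slc3a2 (15.8% and 16.98% in ependymal-like, 31.5% and 45.2% in activated NSC-like cells) and Slc7a11 (34.0% and 14.3%, and 13.4% and 45.1%) lay inside these ranges. In endothelial-like cells Slc7a11 stood at 7.37% and 14.7%, inside the range of the markers in CT (6.01 to 12.4%) and just above it in Opa1 cKO (8.15 to 13.6%). No difference of these genes is read in the classes where they lay inside the range. In mural-like cells both Slc7a11 and Slc3a2 (71.0% and 41.99%) lay above the range in both libraries. So did Slc3a2 in endothelial-like cells (137.5% and 48.8%) and in progenitor and neuron-like cells. Free RNA can add to levels above the range too, and its part in these differences was not tested.

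**Figure D5:**
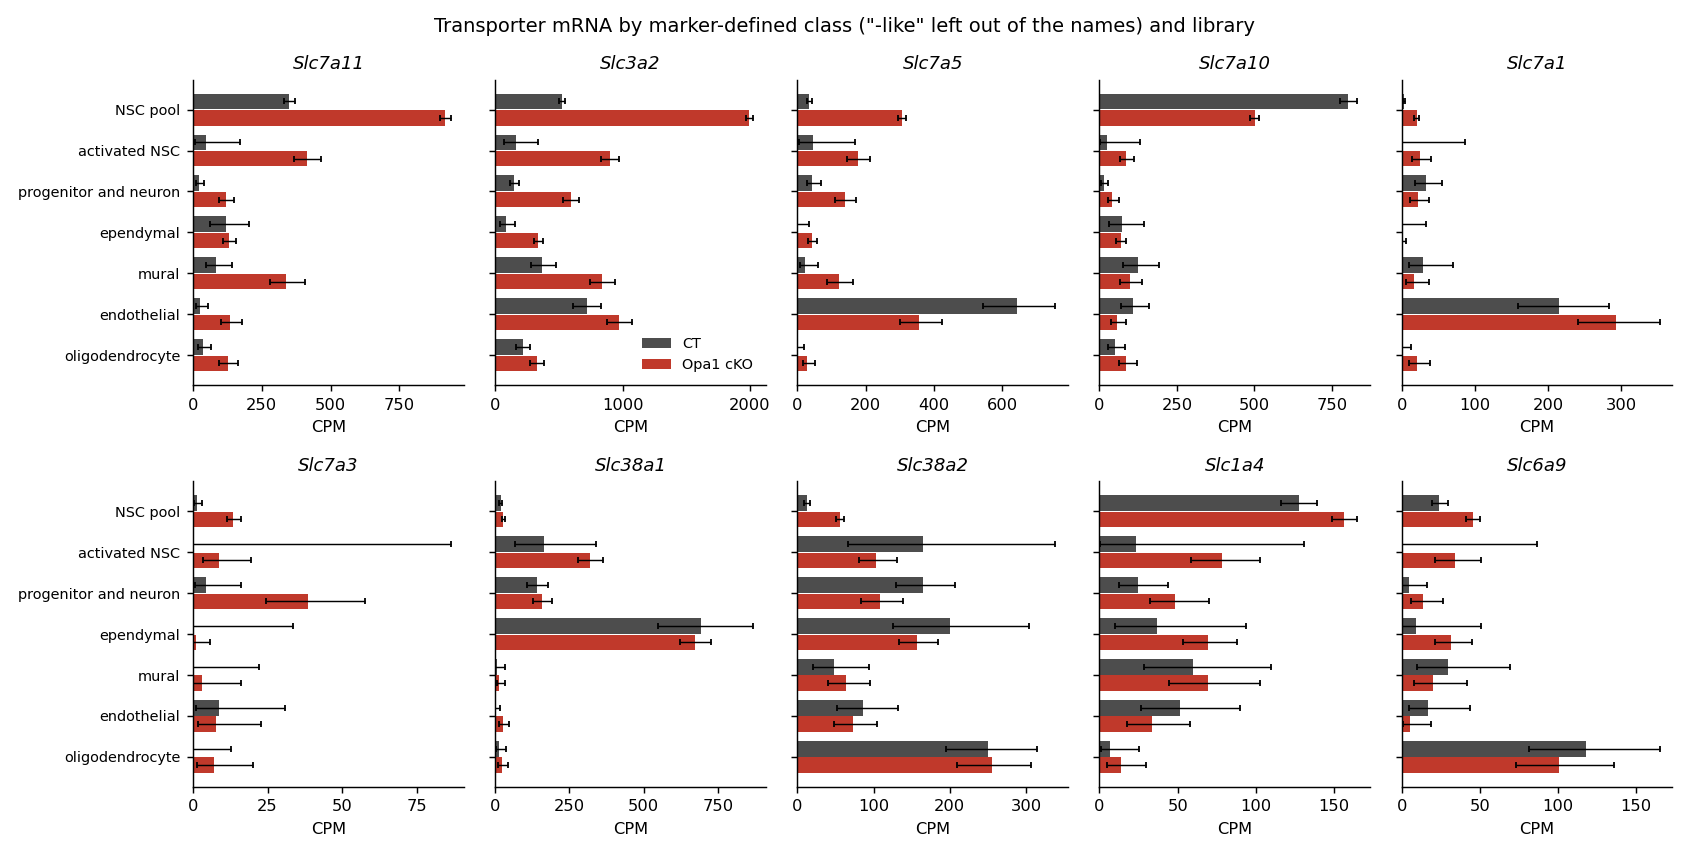
CPM of each member (horizontal axes, linear from 0, a scale per gene) by marker-defined class in CT and Opa1 cKO, with exact 95% Poisson intervals. Slc7a11, Slc7a10 and Slc1a4 were highest in NSC pool-like cells, Slc7a1 in endothelial-like cells (215 and 293 CPM), Slc38a1 in ependymal-like cells (694 and 673 CPM) and Slc38a2 in oligodendrocyte-like cells (250 and 255 CPM). CT activated NSC-like cells were 15, which leaves wide intervals.

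NSC pool-like cells in which no YFP UMI was found (1870 CT and 1553 Opa1 cKO cells) gave the same direction for each member. These cells were classed in a separate clustering without the YFP filter, which named no activated NSC-like cluster, so the class was not drawn alike. Slc7a11 stood at 296 and 770 CPM in them, a log2 ratio of 1.38 (1.28 to 1.48), Slc3a2 at 584 and 1482 CPM, 1.34 (1.27 to 1.41), Slc7a5 at 35.4 and 254 CPM, 2.84 (2.59 to 3.1), and Slc7a10 at 965 and 707 CPM, −0.45 (−0.52 to −0.38). Slc1a4 had 0.10 (−0.07 to 0.26). The ratios of Slc3a2 and Slc7a10 were smaller in size than in cells with a YFP UMI, with intervals that did not overlap. All cells came from a sort on YFP, and a missing YFP UMI does not show that a cell had not recombined.

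Over the 14 combinations of library and class, the genes whose log2 level ran most like Slc7a10, among 7147 genes with at least 300 UMIs, were Cxcl14 (Pearson's r of 0.97), Ppp1r3g (0.97), Fjx1 (0.95), Grin2c (0.95) and Htra1 (0.94). Those most like Slc7a11 were Prodh (0.92), Ugp2 (0.91), Ndufb4 (0.89), Decr1 (0.89) and Eno1 (0.88), and those most like Slc3a2 were Mrpl35 (0.92), Herpud1 (0.90), Mrpl46 (0.89), Cyb5r1 (0.87) and Edf1 (0.86). The points share 2 libraries and the free RNA within each, and the correlations are descriptions.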

How the data were processed

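Per the labels and the study's methods, the authors made both libraries with the 10x Genomics 3′ v2 kit and Cell Ranger 2.1.1 against mm10, while the matrix header gives software version 3.1.0. The gene annotation used for counting is not given in the sources used here. The deposited matrices hold raw UMI counts per gene and cell. As in the authors' filters, a kept cell had over 600 genes but fewer than 7500, less than 20% of UMIs from mitochondria and at least 1 YFP UMI. The study reported more cells of each genotype than these filters kept, so the sets of cells are not the same. Kept cells were clustered with Seurat 5.3.0 and sctransform 0.4.2 (8 dimensions, resolution 0.2) without transporter, mt- or ATF4 target genes, and named from marker lists. The form of that naming was changed after the clusters were seen. Scrublet marked 11 of 4186 CT and 5 of 6121 Opa1 cKO cells, too few to be usable, so doublets were not removed.

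Sums of UMIs over the cells of a class in each library are given as CPM, the UMIs of a gene per 1e6 UMIs of the group, with exact Poisson intervals. Ratios are Opa1 cKO over CT, with exact intervals from the binomial split of both counts, and shares have Clopper-Pearson intervals. UMIs were summed for symbols with several identifiers. Counts of genes took those with at least 100 UMIs over both groups. With 1 library a genotype no test was made. The members, lists and limits were chosen with earlier results of these data known. Genes named beside the members were Opa1, 4 ATF4 pathway genes, the 8 other transporters with the largest difference in NSC pool-like cells (1 of them is not reported here), and the 5 genes most like each of 3 members. The ratios and intervals were tested on simulated counts, drawn from the same count models that the intervals assume. Clustering, class naming and thinning were not tested in this way.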

Additional observations from a re-analysis of the deposited data

Results flagged for a closer look

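In 3 cases the log2 ratio of a member had opposite signs in NSC pool-like cells and in another class, with both intervals off 0. The share of all genes with such a pair of ratios is not given here. The difference between the classes was not tested, since each class had 1 library per genotype. Slc7a5 had a log2 ratio of 3.13 in NSC pool-like cells and −0.85 (−1.19 to −0.51) in endothelial-like cells, on 150 CT and 138 Opa1 cKO UMIs. Slc7a10 had −0.68 in NSC pool-like cells and 1.65 (0.33 to 3.23) in progenitor and neuron-like cells, on 6 and 25 UMIs. There its level was 1.66% of the NSC pool-like level in CT and 8.37% in Opa1 cKO, where NSC markers stood at 3.84 to 6.0% and 4.27 to 11.7%. In Opa1 cKO the top 5 cells held 64% of the 25 UMIs. No difference of Slc7a10 is read in that class. Slc38a2 had 2.13 in NSC pool-like cells and −0.59 (−1.10 to −0.09) in progenitor and neuron-like cells, on 74 and 65 UMIs.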

How the results depend on the processing

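Each value was recomputed under up to 14 alternatives, of which leaving out the 5% of cells with most UMIs was chosen after seeing the data. The planned removal of cells marked by Scrublet was not run. No paired analysis was possible because the result comes from no test and each genotype has 1 library. Of single values, 459 moved by less than counting error and 95 by more, and 2 whose interval lay off 0 changed sign: Slc38a1 in NSC pool-like cells to −0.040 when clustered on all variable genes, and Slc38a1 between low-mt and normal-mt cells to 0.47 with the limit at 2%. Another 18 changes of sign were of values whose interval included 0, among them Slc38a1 in low-mt cells from 0.25 to −1.02 with the limit at 0.5%, Slc7a3 in normal-mt cells from 0.54 to −0.52 with its top 5 cells left out, and Slc6a9 in normal-mt cells from 0.41 to −0.11 with the limit at 2%. In NSC pool-like cells the log2 ratio ranged from 1.33 to 1.52 for Slc7a11, 1.70 to 1.98 for Slc3a2, 3.02 to 3.26 for Slc7a5 and −0.75 to −0.55 for Slc7a10. In low-mt cells against CT, 1 member was 2-fold lower under some settings, and it was not always the same gene. With the mt- limit at 0.5% it was Slc38a1 (−1.02). It was Slc7a10, at −0.99 in the main setting, with no YFP UMI required (−1.08) and with the limit at 2% (−1.04). Slc7a10 was also the one with mt- mRNAs out of the denominator (−1.07) and when centred on all genes (−1.12). In normal-mt cells against CT, a limit of 0.5% gave a median of 1.34 and 5 members 2-fold higher, and a limit of 2% gave 1 member. Within Opa1 cKO, 1 member was 2-fold lower with no YFP UMI required. There a limit of 0.5% gave a median of 0.55 with 1 member 2-fold higher and 1 lower, and a limit of 2% a median of 1.58. The mt- limit thus sets these counts. The shares of all genes at limits of 0.5% and 2% are not given here. The counts at those limits therefore show only that they depend on the limit. Over all genes, a minimum of 20 UMIs gave 4.39% higher and 3.83% lower in NSC pool-like cells, 5.85% lower in low-mt cells, 1.90% higher and 3.03% lower in normal-mt cells, and 2.35% higher and 2.08% lower within Opa1 cKO. A minimum of 300 UMIs gave 1.24% lower in NSC pool-like cells and 0.322% higher in normal-mt cells. Centring gave 3.38% higher and 4.96% lower in low-mt cells, and 0.838% higher and 1.02% lower within Opa1 cKO.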
